A study of Mus musculus with 24 samples.

Results

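Complement components are secreted proteins that tag surfaces for uptake, and 7 of their genes are described here in SIM-A9 cells, an immortalised mouse microglial line: C1qa, C1qb, C1qc, C3, C4b, Cfb and Cfp. They were chosen as a list of symbols and were found by symbol among the 54838 Ensembl gene identifiers of a table of raw read counts. All 7 were in the table, and 6 of them (all but Cfb) had enough reads to be among the 13116 genes tested. The study asked how probes used to record from or act on neurons affect microglia, beside an inflammatory positive control. Poly-A RNA was sequenced from 24 libraries in 8 groups of 3. All cells had been in serum-free medium for 2 h before the treatment, and RNA was extracted 2 h into it, so the controls share the serum withdrawal. Every library, those of the control included, is listed with 30 µL added to 270 µL of medium. The groups were control and LPS (bacterial lipopolysaccharide, the positive control). Nanotube groups were (GT)6 SWCNT (single-walled carbon nanotubes carrying the short DNA that this name denotes) and COOH SWCNT (carboxylated nanotubes). The others were Fura-2 (a calcium dye), a pair of further dyes labelled Di-2-ANEPEQ and DiBASC2, and an adeno-associated virus, AAV. Doses, and the cargo of the AAV, are not given in the sources used here. The labels spell the names of that pair in several ways and number the DiBASC2 treatment differently in each library, and the groups follow the sample titles. Nothing in the labels says that the 3 libraries of a group came from separate cultures, so the p-values measure the spread between these libraries, which may be technical.

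Complement is started by several routes that meet at C3. In the classical route C1q, built from the A, B and C chains encoded by C1qa, C1qb and C1qc, binds a target and leads to cleavage of C4, which is C4b in the mouse. In the alternative route, factor B (Cfb) is the protease that pairs with cleaved C3, and properdin (Cfp) stabilises that pair. Cleaved C3 stays on the target and is recognised by receptors on phagocytes, while the small fragments C3a and C5a act on the receptors C3ar1 and C5ar1. In the brain, microglia are the main source of C1q, and C1q and C3 are known for marking synapses that microglia remove.

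Each library held between 17364272 and 29259221 counts, and libraries of one group correlated at r from 0.992 to 0.995 across genes. The label of a microglial line was checked on 13 markers of microglia and macrophages, of which 12 passed the filter. Their summed level was 2457 to 2713 CPM across libraries (read counts relative to library size, the sizes adjusted by TMM factors), with Csf1r at 507 ± 20.0 and Tyrobp at 456 ± 27.5 CPM in control (SD, n = 3). Markers that set microglia apart from other macrophages were low, with Tmem119 at 4.13 ± 0.302, P2ry12 at 2.35 ± 0.863 and Fcrls at 0.976 ± 0.435 CPM in control, and Sall1 had at most 3 counts in any library. No marker of astrocytes (4 listed), neurons (4), endothelium (3) or fibroblasts (3) passed the filter. In bulk RNA, fewer cells of a kind and less RNA per cell cannot be told apart. The library numbers in the labels run on within each group, so library order and treatment cannot be told apart either.

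The members lie at 4 places in the genome (build GRCm38, GENCODE M21), all are protein-coding, and all 7 are on the minus strand. C1qb (ENSMUSG00000036905.8, chromosome 4, 136880129 to 136886187), C1qc (ENSMUSG00000036896.5, 136889804 to 136893065) and C1qa (ENSMUSG00000036887.5, 136895917 to 136898803) are neighbours in that order, with gaps of 3616 and 2851 bp and no other gene between them. C4b (ENSMUSG00000073418.4, chromosome 17, 34728380 to 34743882) and Cfb (ENSMUSG00000090231.10, 34856374 to 34862518) lie in the same region of chromosome 17, and C3 (ENSMUSG00000024164.15, 57203970 to 57228136) lies apart on that chromosome. Cfp (ENSMUSG00000001128.7, 20925454 to 20931555) is on chromosome X.

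The RefSeq promoter table for GRCm38.p6 held 4 of the 7 members (C1qb, C1qc, C3 and Cfp). The 250 bases before the start site are shown for C3, the member that changed in most treatments, and for C1qb and C1qc, neighbours whose levels stayed in a narrow ratio. They are written 5′ to 3′ on the minus strand, from chr17:57228137-57228386, chr4:136886201-136886450 and chr4:136892915-136893164. Capitals mark a match to 1 of 5 motifs.
C3: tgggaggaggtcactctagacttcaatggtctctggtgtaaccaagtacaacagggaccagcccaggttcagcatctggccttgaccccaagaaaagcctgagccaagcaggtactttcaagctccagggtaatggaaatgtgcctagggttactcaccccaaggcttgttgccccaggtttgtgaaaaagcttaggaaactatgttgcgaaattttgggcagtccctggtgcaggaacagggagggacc
C1qb: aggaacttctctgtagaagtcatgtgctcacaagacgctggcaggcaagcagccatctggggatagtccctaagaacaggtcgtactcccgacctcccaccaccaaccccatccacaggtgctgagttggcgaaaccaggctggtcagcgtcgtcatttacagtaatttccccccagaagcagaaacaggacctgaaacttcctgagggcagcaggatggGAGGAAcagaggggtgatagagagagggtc
C1qc: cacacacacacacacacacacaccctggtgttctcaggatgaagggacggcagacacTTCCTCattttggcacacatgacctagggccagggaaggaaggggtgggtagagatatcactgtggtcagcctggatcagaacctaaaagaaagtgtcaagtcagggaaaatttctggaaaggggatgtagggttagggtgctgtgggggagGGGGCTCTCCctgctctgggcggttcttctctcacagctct
The motifs searched on both strands, in these bases and the 50 after the start, were the NF-kB site, GAS (TTCNNNGAA), the ISRE core, the PU.1 core (GAGGAA) and the TATA box (TATAAA). PU.1 is a transcription factor of myeloid cells, and NF-kB carries signals from LPS. C1qb held the PU.1 core 30 to 25 bases before its start. C1qc held it on the other strand, 193 to 188 bases before the start, and an NF-kB match 41 to 32 bases before it. The RefSeq start of C1qc lies inside the GENCODE gene, so that the last 151 of the C1qc bases shown, with the NF-kB match, are inside the annotated gene, and the PU.1 core is outside it. C3 held none of the 5 in the bases shown, and its only match was TATAAA, 15 to 20 bases after the listed start. Among 32851 promoters of the same length, 28.3% held the PU.1 core, 4.51% the NF-kB site, 13.6% TATAAA, 8.30% GAS and 3.44% the ISRE core. A match is a description of letters and not a site shown to be used.

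Control SIM-A9 cells carried much mRNA for the B and C chains of C1q, for C3 and for properdin. They carried less for the A chain, little for C4b, and almost none was counted for factor B. Levels of different genes are compared per length, as CPM per kilobase of merged exons in the 3 control libraries (mean ± SD). C1qb was highest at 122 ± 6.42, above 97.3% of the tested genes. C1qc followed at 49.4 ± 3.88, or 79.2 when the 1203 bp of its longest annotated transcript are used in place of the 1931 bp of merged exons. C3 was at 36.2 ± 1.20 and Cfp at 29.3 ± 2.06 CPM per kilobase, above 88.4% and 85.4% of the tested genes. C1qa was at 10.02 ± 0.677, near the median gene (5.59) and above 63.9% of genes. C4b was at 0.306 ± 0.0247, with only 10.9% of tested genes lower. The control libraries of neighbours in this order did not overlap for any of the 6 tested members, so the order was larger than the spread between replicates.

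**Figure D1:**
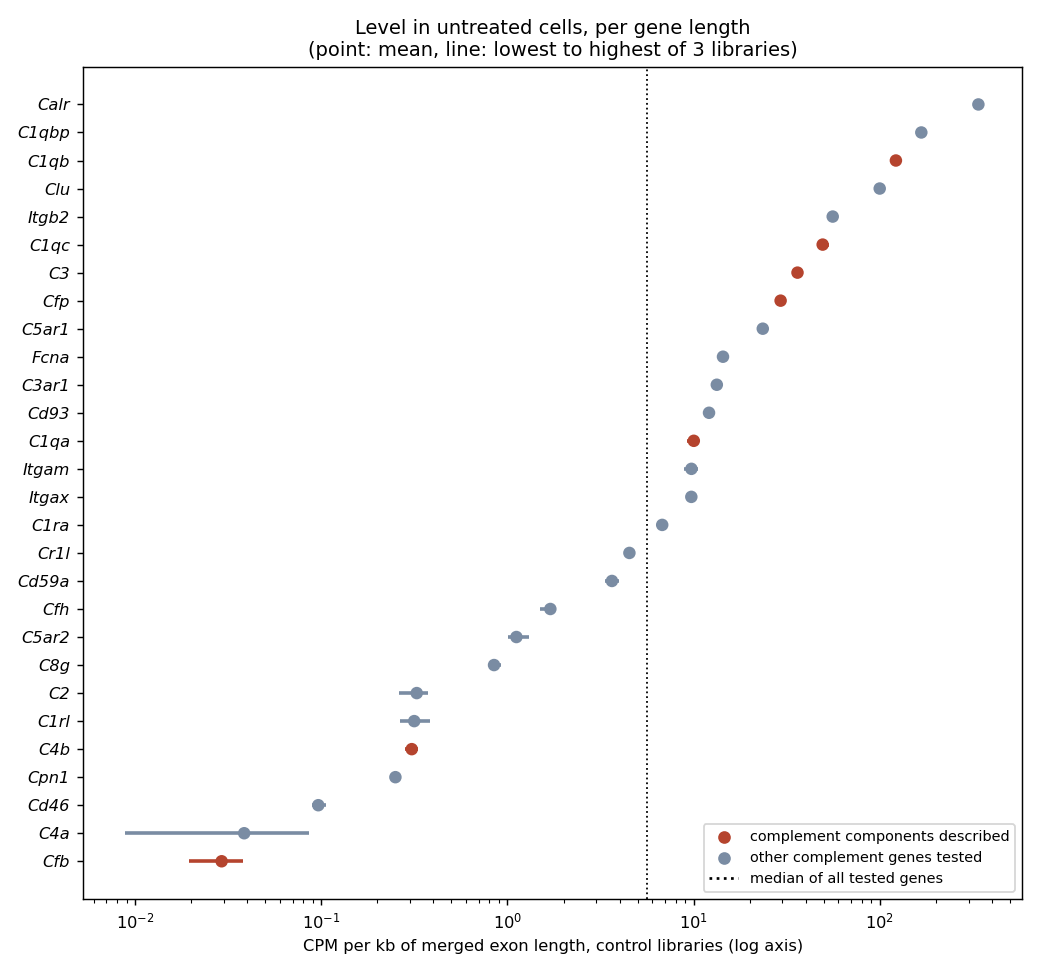
Level in the 3 control libraries of the complement components described (red) and of the 21 other complement genes that were tested (grey), as CPM per kilobase of merged exon length on a log axis. Points are means, lines run from the lowest to the highest library, and the dotted line is the median of all tested genes, 5.59. C1qb at 122, C1qc at 49.4, C3 at 36.2, Cfp at 29.3 and C1qa at 10.02 lie above it, and C4b at 0.306 and Cfb lie far below.

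Cfb, the protease of the alternative route, could hardly be measured in this table. Control libraries held 1, 2 and 2 Cfb reads, LPS libraries 0, 0 and 1, Di-2-ANEPEQ libraries 1, 0 and 0, and AAV libraries 3, 0 and 1. All 12 libraries of the remaining groups held 0. Every value is at or under 3 counts, so no fold is given and no change in Cfb could be detected at this depth. The annotation bears on this count. Of the merged exon bases of Cfb, 2246 (79.5%) also belong to Gm20547, a gene model on the same strand that runs on into C2, and Gm20547 itself had 0 counts in every library. Across the table, 0 of 685 genes whose exons lie wholly inside same-strand genes had any count, against 43.1% of 42581 genes that share no exon base, so reads there appear to have been given to neither gene. Only 579 bp of Cfb could then be counted, and on those the control level was 0.142 CPM per kilobase in place of 0.0291.

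C4b was low everywhere and its reads may be shared with its near-identical neighbour C4a, which lies 65209 bp away on the same strand. C4b held 19 to 58 reads per library, and the values of both genes are uncertain where reads fit either. In control C4b was at 1.59, 1.87 and 1.76 CPM and in LPS at 1.09, 1.51 and 0.888 CPM. The LPS libraries all lay below the control libraries, by −0.59 ± 0.26 (SE) as a log2 fold change, which did not pass the test (adjusted p 0.0931, edgeR's quasi-likelihood test with Benjamini-Hochberg adjustment, as for all adjusted p-values here). Without LPS replicate 2, the highest of the 3, C4b was called lower (−0.82, adjusted p 0.0429). C4b was not called in any other treatment against control, with estimates from −0.31 in AAV to 0.00 in Fura-2, and SEs of 0.23 to 0.25 that leave sizeable changes undetectable.

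In LPS, C3 was higher and no other member passed the test. C3, the component on which all routes meet, stood at 179, 191 and 187 CPM in control and at 285, 271 and 271 CPM in LPS. The 3 LPS libraries were the highest of all 24, far above control and every other group. The rise was 1.48-fold (95% interval 1.40 to 1.57), or 0.57 ± 0.04 (SE) as a log2 fold change with an adjusted p of 2.94e-14, and C3 was called in all 13 alternative settings. So 1 of 6 tested members was called in LPS, where 28.3% of all tested genes were called. The libraries of 2 of them (C3 and C4b) did not overlap control, beside 38.3% of all genes. C1qb was at 135, 144 and 139.7 CPM in LPS against 128, 129 and 141 CPM in control, which overlap (0.07 ± 0.05, adjusted p 0.281). C1qa and C1qc also overlapped, with estimates of 0.04 ± 0.11 and 0.01 ± 0.05. Cfp was nearly level at 50.6 ± 1.18 CPM in LPS and 50.9 ± 3.58 CPM in control (SD, n = 3), with a 95% interval of its log2 fold change from −0.12 to 0.11. The median log2 fold change of the 6 members was 0.03, beside −0.01 over all genes tested.

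**Figure D2:**
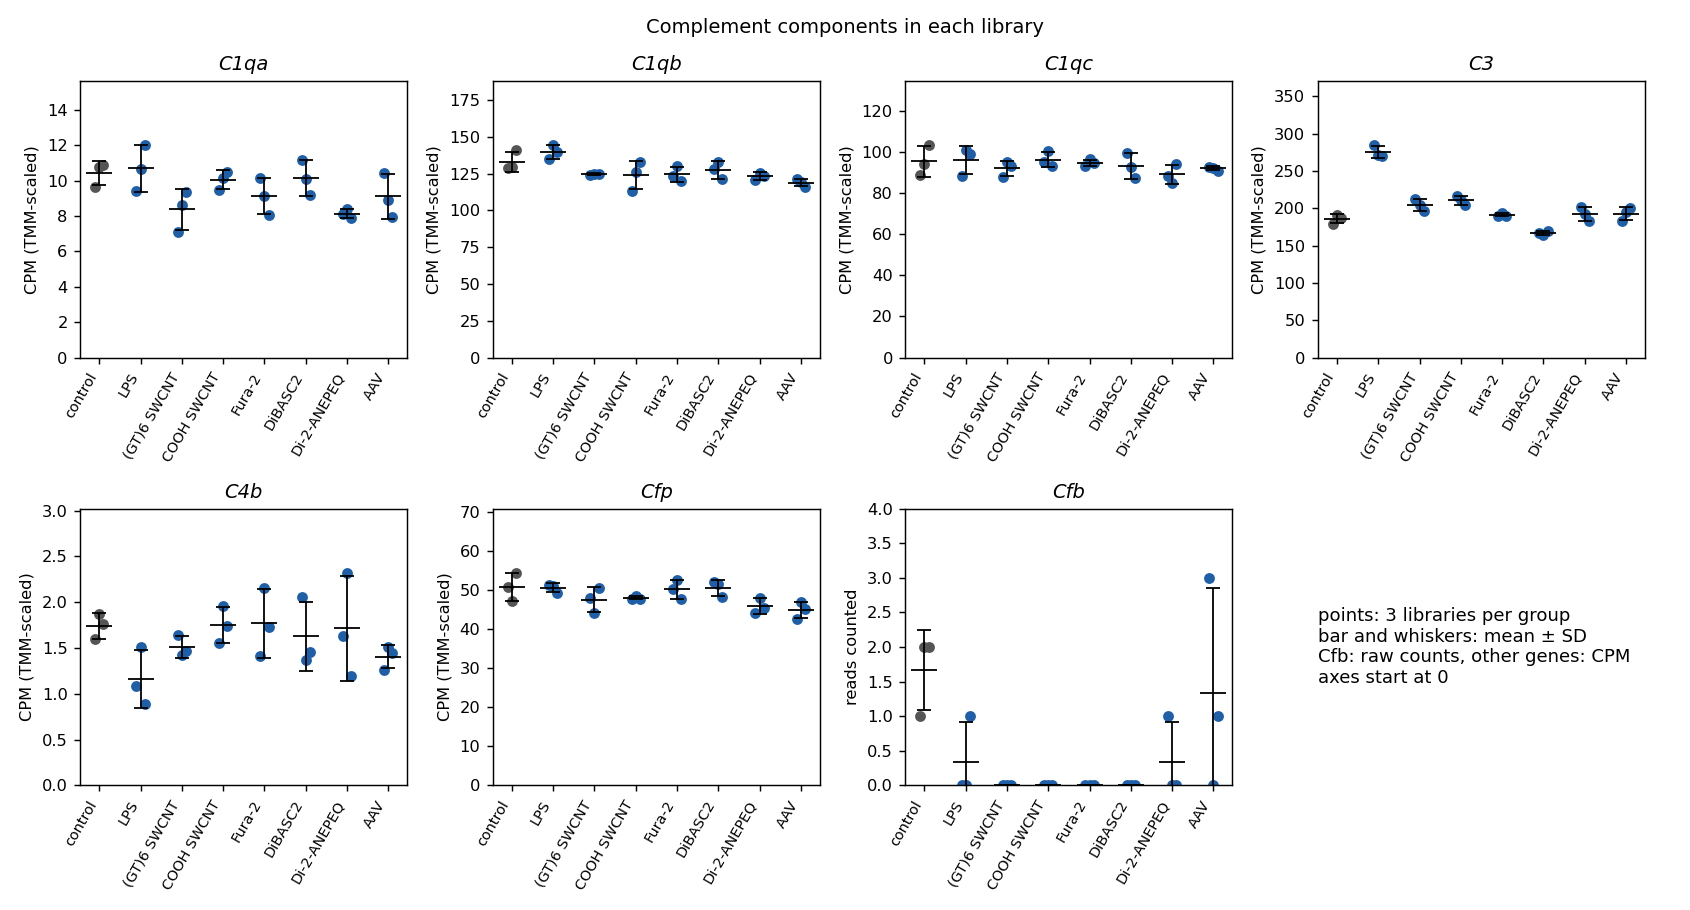
Level of each of the 7 members in each library, as CPM scaled with TMM factors, or as reads counted for Cfb. Points are single libraries, 3 per group, bars and whiskers are means ± SD, control is grey, and all axes start at 0. C3 in LPS (271 to 285 CPM) stands clear of every other group, while the groups of C1qc and Cfp stay close together.

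In (GT)6 SWCNT, C3 was higher and C1qa lower, both by small amounts, and 2 of 6 members were called beside 20.4% of all genes. The libraries of 3 (with C1qb) did not overlap control, beside 34.3% of all genes. C3 was at 212, 204 and 196 CPM in (GT)6 SWCNT, all above the highest control library. It rose 1.10-fold (log2 fold change 0.13 ± 0.04, adjusted p 0.0149). C1qa, the A chain of C1q, was at 7.10, 8.64 and 9.37 CPM, against 9.62, 10.8 and 10.9 CPM in control, again with no overlap. It fell by 0.33 ± 0.12 on the log2 scale, to 8.37 from 10.4 CPM (adjusted p 0.0372). Neither call was firm to single libraries. C1qa was no longer called without control replicate 2 (adjusted p 0.146), control replicate 3 (0.149), (GT)6 SWCNT replicate 1 (0.311, at a log2 fold change of −0.21) or (GT)6 SWCNT replicate 2 (0.0673), and C3 was lost without (GT)6 SWCNT replicate 1 (0.12, adjusted p 0.0858). C1qb (124.2, 125.0 and 124.9 CPM) lay just under the control libraries without passing the test (−0.09 ± 0.05, adjusted p 0.188). For C1qc and Cfp the libraries overlapped control, at −0.05 ± 0.05 and −0.10 ± 0.06.

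In COOH SWCNT, C3 alone was called, higher, so that 1 of 6 members was called beside 20.0% of all genes. It was also the 1 member without overlap with control, beside 34.4% of all genes. C3 stood at 216, 210.4 and 205 CPM, above all control libraries, a rise of 1.13-fold (0.18 ± 0.04 on the log2 scale, adjusted p 0.00146) that held in all 13 alternative settings. C1qb was at 113, 126 and 133 CPM, spread over a wider range than in any other group and overlapping control (−0.10 ± 0.05, adjusted p 0.142). C1qa, at 9.45, 10.2 and 10.5 CPM, overlapped control as well (−0.06 ± 0.11).

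The nanotube groups were also compared with LPS and with each other. C3 was lower in both than in LPS, by 0.43 ± 0.04 in (GT)6 SWCNT (adjusted p 5.63e-11) and by 0.39 ± 0.04 in COOH SWCNT (adjusted p 5.04e-10) on the log2 scale. C1qb was lower than in LPS in both as well, with log2 fold changes of −0.16 ± 0.05 (adjusted p 0.00945) and −0.17 ± 0.05 (adjusted p 0.00353), and its libraries did not overlap those of LPS in either comparison. C1qa was lower in (GT)6 SWCNT than in LPS (−0.37 ± 0.12, adjusted p 0.0173). Thus 3 of 6 members were called against LPS in (GT)6 SWCNT, beside 21.6% of all genes, and 2 of 6 in COOH SWCNT, beside 37.8%. C4b was higher in COOH SWCNT than in LPS by 0.58 ± 0.26, which did not pass (adjusted p 0.0731), but did with upper-quartile factors (0.63, 0.0472) and without LPS replicate 2 (0.82, 0.0322). Members without overlap with LPS numbered 3 (33.1% of all genes) and 4 (C1qb, C3, C4b and Cfp, 44.1% of all genes). Of the 13 alternative settings, each C1qb call against LPS held in 12 and the C1qa call in 11. The settings that lost them each left out a single library. Without LPS replicate 2 the C1qb difference of (GT)6 SWCNT was not called (adjusted p 0.0746), without COOH SWCNT replicate 1 that of COOH SWCNT was not (0.0677), and the C1qa call was lost without (GT)6 SWCNT replicate 1 (0.183) or LPS replicate 3 (0.146). Between (GT)6 SWCNT and COOH SWCNT, 0 of 6 members were called by edgeR or by DESeq2, beside 21.4% of all genes, with 1 member at an unadjusted p under 0.05. That member was C1qa (−0.27 ± 0.11, adjusted p 0.0858), the 1 member whose libraries did not overlap, beside 35.5% of all genes. The difference in C3 was −0.04 ± 0.04, with a 95% interval from −0.12 to 0.04.

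DiBASC2 was the treatment in which C3 fell, the 1 member of 6 called, beside 5.47% of all genes. C3 was at 166, 164 and 170.0 CPM, all under the lowest control library of 179 CPM. Of all genes, 22.6% lacked overlap with control, in either direction. The decrease was 1.12-fold (−0.16 ± 0.04 on the log2 scale, adjusted p 0.0147). The call was lost without control replicate 2 (adjusted p 0.108), control replicate 3 (0.0585) or DiBASC2 replicate 2 (0.0595), and with upper-quartile scaling (−0.13, adjusted p 0.0563). C1qa, C1qb, C1qc, C4b and Cfp overlapped control, with estimates between −0.10 and 0.00.

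In the Fura-2 and Di-2-ANEPEQ groups no member was called by edgeR or by DESeq2. For Fura-2, 0 of 6 were called beside 0.252% of all genes, and 1 member, C1qb, had an unadjusted p under 0.05 (−0.10 ± 0.05, adjusted p 0.461), at 123, 130.2 and 119.9 CPM. All 6 overlapped control, where 16.2% of all genes did not. For Di-2-ANEPEQ, 0 of 6 were called beside 3.08% of all genes, and 3 had an unadjusted p under 0.05: C1qa, C1qb and Cfp, all with lower estimates. C1qa was at 8.14, 8.37 and 7.88 CPM there, below every control library and the lowest group mean of the 8. Its estimate of −0.36 ± 0.11 had an adjusted p of 0.0694, and passed with no low-count filter (0.0376) and in a fit of only these 2 groups (0.0180). C1qb was at 121, 126 and 123 CPM, also below control without overlap (−0.11 ± 0.05, adjusted p 0.223), which made 2 members without overlap beside 24.3% of all genes. C3 overlapped control in both dyes, with estimates of 0.04 ± 0.04 and 0.05 ± 0.04.

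With AAV, C1qb was lower, the 1 member of 6 called, beside 5.00% of all genes. C1qb stood at 121, 119 and 116 CPM, under all 3 control libraries, and fell by 0.16 ± 0.05 on the log2 scale (adjusted p 0.0379). Cfp, properdin, lay at 42.7, 46.9 and 45.3 CPM, also without overlap with control (47.4 to 54.5 CPM), at −0.18 ± 0.06 and an adjusted p of 0.0536. With C4b, 3 members had no overlap with control, beside 24.6% of all genes. The C1qb call was lost without AAV replicate 2 (adjusted p 0.116), AAV replicate 3 (0.142), control replicate 1 (0.0605) or control replicate 3 (0.254). Cfp passed without control replicate 2 (0.0246), with upper-quartile scaling (0.0423), with a mean of at least 50 counts (0.0404), in DESeq2 (0.0380) and in a fit of these 2 groups (0.0471). The median log2 fold change of the 6 members was −0.17, beside 0.00 over all genes tested. The members other than C3 all had negative estimates in AAV, as they also did in (GT)6 SWCNT, Fura-2, DiBASC2 and Di-2-ANEPEQ. All of these groups were compared with the same 3 control libraries.

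**Figure D3:**
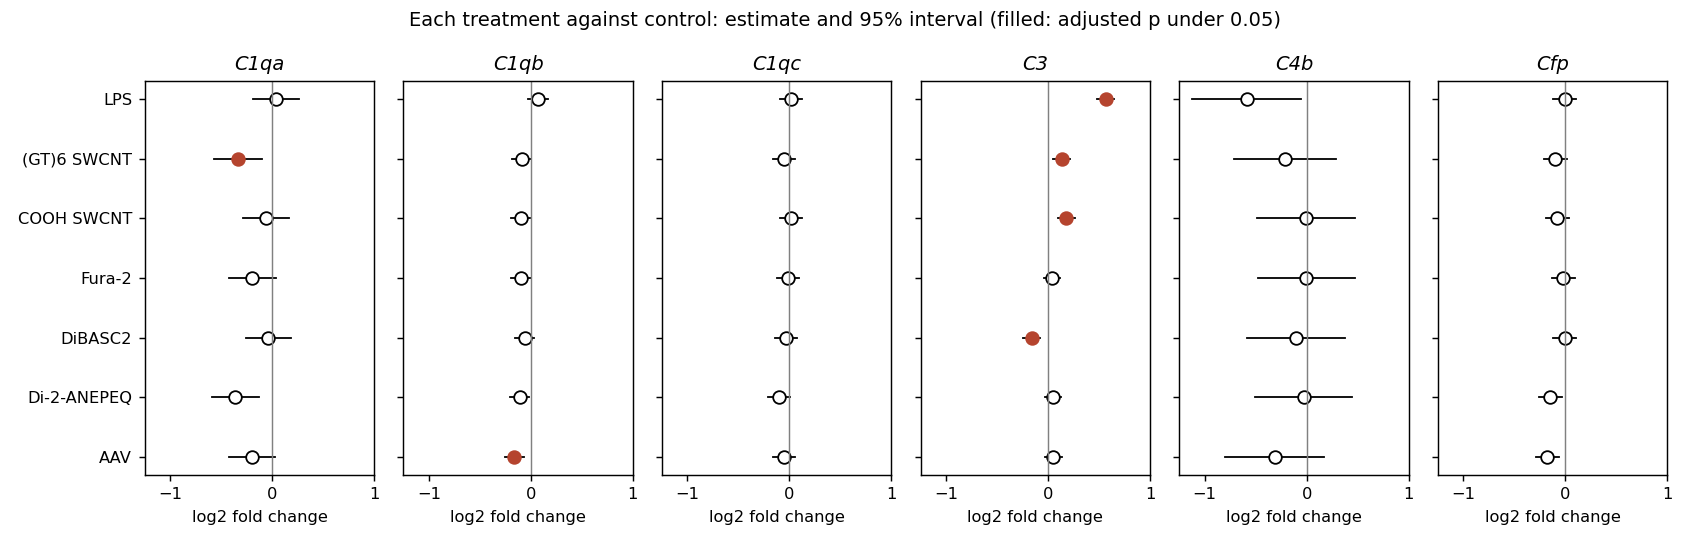
Log2 fold change of the 6 tested members in each treatment against control, with its 95% interval from the fit to all 24 libraries. Filled points passed an adjusted p of 0.05. C3 is filled in 4 treatments, at −0.16 in DiBASC2, 0.18 in COOH SWCNT, 0.13 in (GT)6 SWCNT and 0.57 in LPS, C1qa in (GT)6 SWCNT and C1qb in AAV, and C1qc, C4b and Cfp in none.

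All 7 treatments were set against the same 3 control libraries, so their estimates share the noise of those controls. Across the 8 groups C3 ranged most beyond its spread, 1.65-fold between the highest mean (LPS) and the lowest (DiBASC2), with a coefficient of variation of 3.42% within groups. From low to high, its means were 167 CPM in DiBASC2, 186 in control, 191 in Fura-2, 192 in Di-2-ANEPEQ, and 193 in AAV, then 204 in (GT)6 SWCNT, 210.4 in COOH SWCNT and lastly 275 in LPS. Neighbours in this order overlapped except LPS with COOH SWCNT and control with DiBASC2. C4b ranged 1.52-fold with a coefficient of variation of 20.0%, and C1qa 1.31-fold with 10.2%. C1qb ranged 1.18-fold (4.32%), from 139.7 CPM in LPS to 119 CPM in AAV, and Cfp 1.13-fold (4.80%), from 50.9 CPM in control to 44.98 CPM in AAV. C1qc, the C chain, ranged least, 1.08-fold (5.27%), from 96.2 CPM in LPS to 89.0 CPM in Di-2-ANEPEQ, and was not called in any of the 10 comparisons. For C1qa, C1qc, C4b and Cfp the libraries of every pair of neighbours in the order overlapped, and so did those of C1qb.

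The 3 chains join in one protein, but their mRNA was far from equal per length. The ratio of C1qb to C1qa, as CPM per kilobase, lay between 10.98 and 16.7 in the 24 libraries, with a median of 12.8. The ratio of C1qc to C1qa lay between 4.44 and 6.64 (median 5.22), and that of C1qb to C1qc between 2.12 and 2.71 (median 2.41). Both of these depend on the length taken for C1qc: by its longest transcript they were 7.13 to 10.7 (median 8.38) and 1.32 to 1.69 (median 1.5015). In Di-2-ANEPEQ the ratio of C1qb to C1qa was 14.2, 14.3 and 14.97, above the control libraries (11.5 to 12.8). Between C3 and Cfp, both acting in the alternative route, the ratio was 1.79 to 1.87 in LPS, 1.16 to 1.36 in control and 1.07 to 1.19 in DiBASC2. It also lay above every control library in COOH SWCNT (1.45 to 1.52) and AAV (1.41 to 1.49). In DiBASC2 and the remaining groups it overlapped control.

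**Figure D4:**
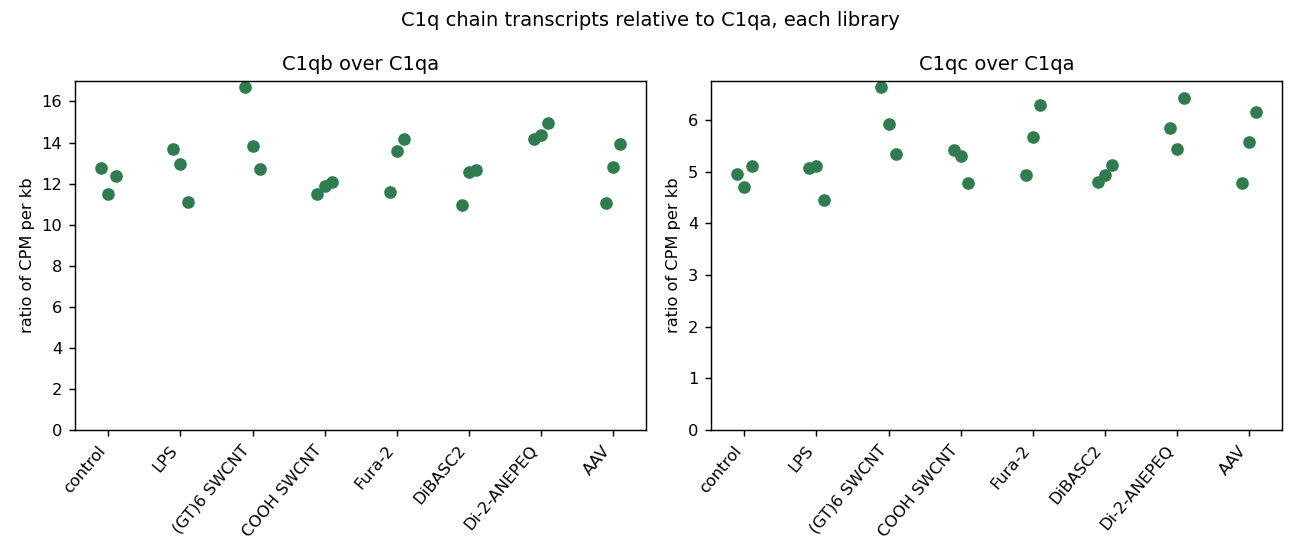
Ratio of C1qb to C1qa (left) and of C1qc to C1qa (right) in each library, from CPM per kilobase of merged exons, with axes from 0. Each point is 1 library, 3 per group. The B chain lies 10.98 to 16.7 times above the A chain in all 24 libraries and the C chain 4.44 to 6.64 times, or 7.13 to 10.7 times by the longest transcript of C1qc.

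Other genes of the system were taken from a list of 46: 21 components and proteases, 14 regulators and 11 receptors and binding proteins. Of these 21 passed the filter, 6, 6 and 9 in turn. Of the terminal components, C6, C7, C8a and C8b had 0 counts in every library and C9 and Hc (C5) at most 3, while C8g passed the filter at 1.26 ± 0.0964 CPM in control (SD, n = 3). Mbl1 and Mbl2, the mannose-binding lectins, Cfd (factor D) and Cfi (factor I) also had 0 counts throughout. Per length in control, the binding proteins Calr (339 CPM per kilobase) and C1qbp (167) and the regulator clusterin (Clu, 99.99) were highest, and the C3 receptor subunit Itgb2 was at 55.9.

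Of the receptors for the small fragments, C5ar1 and C3ar1 were higher in LPS and in both nanotube groups, while C5ar2 was called lower in LPS and was not called in either nanotube group against control. C5ar1, the C5a receptor, averaged 60.5 CPM in control (60.2 to 60.7), 104 in COOH SWCNT (101 to 106), 131 in LPS (129 to 134) and 133 in (GT)6 SWCNT (127 to 137), and no library of these treatments overlapped control. Its log2 fold changes were 0.77 ± 0.05 (adjusted p 1.63e-15), 1.12 ± 0.05 (1.22e-21) and 1.14 ± 0.05 (3.24e-21) in turn. Between (GT)6 SWCNT and LPS, C5ar1 differed by 0.02 ± 0.04 (95% interval −0.07 to 0.11), while COOH SWCNT was lower than both. In DiBASC2 it fell to 45.4 CPM (−0.41 ± 0.05, adjusted p 2.24e-07). C3ar1, the C3a receptor, averaged 57.4 CPM in control, 72.8 in COOH SWCNT, 86.6 in (GT)6 SWCNT and 123 in LPS, with log2 fold changes of 0.34 ± 0.05, 0.60 ± 0.05 and 1.10 ± 0.05. All of these calls held in all 13 alternative settings, and C3ar1 differed in each pair of the 3 treatments. Between the nanotubes, C5ar2 was lower in (GT)6 SWCNT (3.14 against 4.45 CPM, adjusted p 0.00780), but not called without COOH SWCNT replicate 1 (0.0530) or (GT)6 SWCNT replicate 2 (0.0967).

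In LPS, 6 of 21 other genes were called beside the 28.3% of all genes, 3 in each direction. Besides C3ar1 and C5ar1, the protease C1ra rose (20.2 to 24.4 CPM, 0.27 ± 0.07, adjusted p 0.00303). The ficolin Fcna fell (19.8 to 16.6 CPM, adjusted p 0.0123), as did C5ar2, another C5a receptor (3.98 to 2.72 CPM, 0.00835), and the integrin chain Itgam (48.9 to 43.5 CPM, 0.0203). None of those lower calls held in all 13 alternative settings: C5ar2 held in 12, Fcna in 10 and Itgam in 8. C5ar2 was lost without control replicate 1 (adjusted p 0.0839). Fcna was lost without control replicate 2 (0.0762), LPS replicate 1 (0.0632) or LPS replicate 2 (0.102). Itgam was lost without control replicate 1 (0.256), control replicate 3 (0.0658), LPS replicate 1 (0.0610), LPS replicate 2 (0.0810) or in a fit of these 2 groups alone (0.0609). C5ar2 was also called higher in COOH SWCNT than in LPS, in all 13 alternative settings too (log2 fold change 0.65 to 0.78). Of Itgam, 68.7% of exon bases are shared with another gene model on its strand, so its count covers only part of it.

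In (GT)6 SWCNT, 6 of 21 were called, all higher, beside 20.4% of all genes, and in COOH SWCNT 5, of which 4 higher, beside 20.0%. Cd93, once described as a C1q receptor, rose from 80.8 to 111 CPM in (GT)6 SWCNT (0.45 ± 0.05, adjusted p 3.2e-10) and to 106 CPM in COOH SWCNT (0.40 ± 0.04, 1.66e-08). Itgax, a subunit of a receptor for cleaved C3, rose from 46.7 to 58.0 CPM (0.32 ± 0.06, adjusted p 0.000246) and 54.8 CPM (0.23 ± 0.06, 0.00755). In LPS neither was called, and both were higher in each nanotube group than in LPS. Clu rose in (GT)6 SWCNT from 344 to 381 CPM (0.15 ± 0.04, adjusted p 0.00464). Cpn1, a carboxypeptidase chain at 16 to 40 counts per library in these groups, was called higher in (GT)6 SWCNT (0.79 ± 0.26, adjusted p 0.0284), but not without any one of the 3 control libraries (0.0596 to 0.0714), without (GT)6 SWCNT replicate 1 (0.0667) or 2 (0.0956), or with no low-count filter (0.0611). Against LPS, Cpn1 was called higher in (GT)6 SWCNT, also in all 12 alternative settings that tested it (log2 fold change 1.02 to 1.32). It was not called in COOH SWCNT against LPS. C5ar2 in (GT)6 SWCNT was called lower than control only without (GT)6 SWCNT replicate 3 (−0.47, adjusted p 0.0416). Cd59a, an inhibitor of the terminal complex, fell in COOH SWCNT from 6.60 to 4.89 CPM (−0.42 ± 0.12, adjusted p 0.0128), a call lost without control replicate 1 (0.0920), COOH SWCNT replicate 1 (0.102) or COOH SWCNT replicate 2 (0.0654).

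In AAV 1 of 21 was called, beside 5.00% of all genes. It was Cr1l, a regulator of C3 cleavage, which fell from 46.8 to 40.97 CPM (−0.19 ± 0.05, adjusted p 0.0264). The call did not hold without AAV replicate 2 (0.115), AAV replicate 3 (0.119), control replicate 1 (0.134) or control replicate 2 (0.0809), or with no low-count filter (0.0515). In Fura-2 and in Di-2-ANEPEQ 0 of 21 were called by edgeR or DESeq2, beside 0.252% and 3.08% of all genes, with 1 gene each at an unadjusted p under 0.05.

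**Figure D5:**
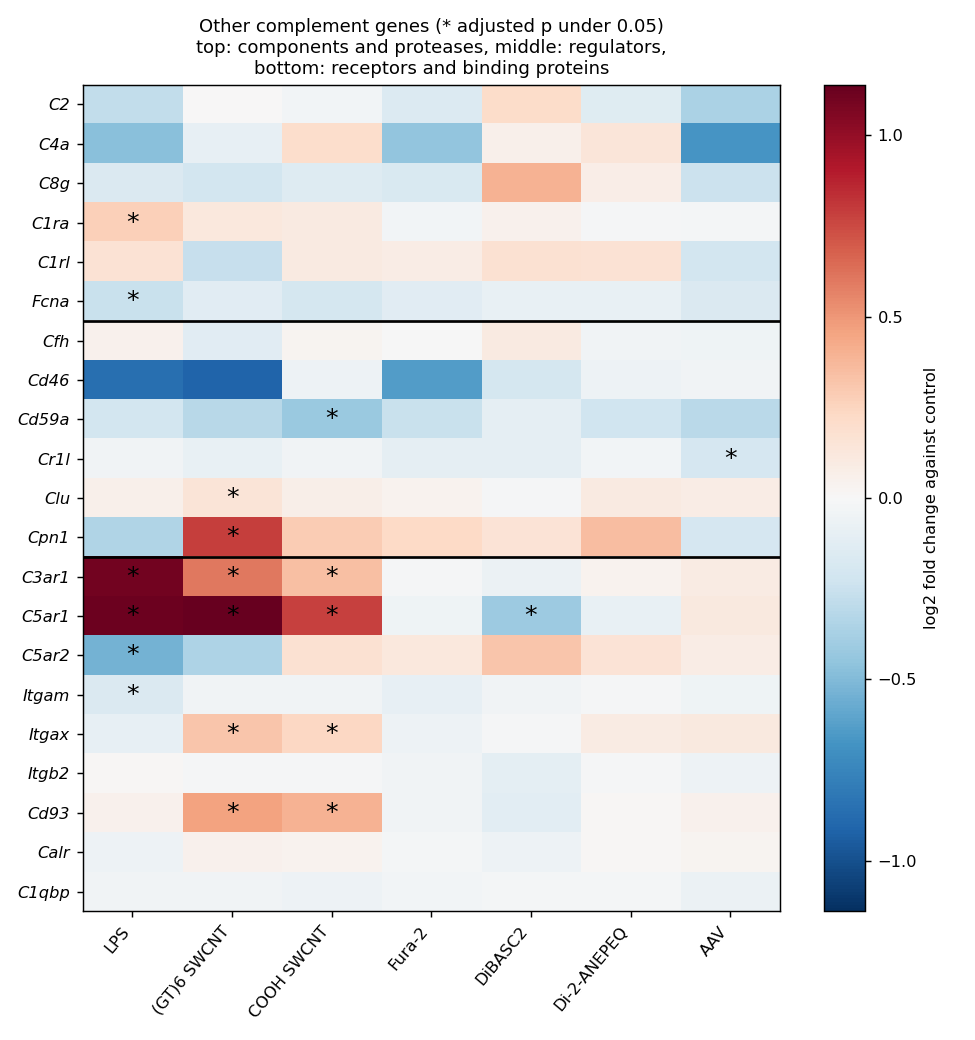
Log2 fold change against control of the 21 other complement genes tested, by treatment, with stars at an adjusted p under 0.05. Red is higher and blue lower than control. C3ar1 and C5ar1 are starred in LPS and both nanotube groups, with values from 0.34 to 1.14, Itgax and Cd93 in the nanotube groups, and the low-count gene Cd46 has large estimates without a star.

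Across the 8 group means of log2 CPM, the genes most like each called member were found among 9474 genes outside the complement lists with a mean of at least 5 CPM. For C3 they were Sh2b2 (Pearson r 0.991) and Sept11 (0.991), for C1qb Eif2b2 (0.992) and Sf3b5 (0.980), and for C1qa Scai (0.937) and Cdc37l1 (0.918). Sh2b2 was at 65.9 CPM in LPS, 45.6 in control and 40.9 in DiBASC2, the same highest and lowest groups as C3. With 8 points and so many genes searched, high values of r are found for some gene whatever the member, and they are given as a description.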

How the data were processed

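Poly-A RNA of 24 libraries (8 groups of 3) was measured. The authors deposited 1 table of raw read counts per gene, a column per library, and the submitters' processing notes name STAR 2.5.4b and GRCm38.p6. The counting tool and annotation are not given in the sources used here. Sample titles gave the groups and replicate numbers. Symbols, positions and lengths came from GENCODE M21 (GRCm38), matching 54809 of 54838 identifiers without their version. Whether strand and shared exons affected counting was read from the counts: 47.5% of 446 genes wholly opposite another gene had counts, so strand appears to have been used.

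The analysis used edgeR 4.0.16 in R 4.3.3: filterByExpr (13116 genes), TMM factors, and 1 quasi-likelihood fit with a mean per group over all libraries (16 residual degrees of freedom). The 10 two-sided comparisons were each treatment against control, each nanotube against LPS, and the nanotubes against each other. Genes under 0.05 after Benjamini-Hochberg adjustment over all genes tested were called. The standard error comes from the F statistic. The fit was also run on simulated counts with the same extra spread for every gene. That setting is simpler than these data, so it checks the code only. Depth was 17364272 to 29259221 counts per library. Replicates differed by more than sampling noise (chi-square per degree of freedom 2.46 to 19.4), and each was counted once. A gene was at the floor with at most 3 counts in every library of a group.

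The alternatives were DESeq2 1.42.0 size factors, its Wald test, a block for the replicate number, upper-quartile factors, 2 other filters (none, or at least 50 counts on average), a fit of the 2 groups alone, each library left out, and, for levels, transcript length. A length without shared exon bases, and ratios by the longest C1qc transcript, were added after seeing the data. One further marker list is not reported here. Members and lists were chosen with earlier results of these data known. Named were all members, the 12 other complement genes called in a treatment, and the 2 genes most like each called member. Calr, C1qbp, Itgb2, Cd46 and the genes with few or no counts were named after their values were seen.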

Additional observations from a re-analysis of the deposited data

How the results depend on the processing

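No member changed direction in a called value under any alternative, nor did any other complement gene called in a treatment against control. The remaining other complement genes were not followed one by one. Among values of single members, 742 stayed on their side of the threshold, 10 came to pass it and 18 no longer did. Among the other complement genes called in a treatment against control these were 1510, 15 and 25. Members called moved from 2 to 1 in (GT)6 SWCNT with the replicate block (C1qa −0.33, adjusted p 0.0506), from 1 to 0 in DiBASC2 with upper-quartile factors, from 0 to 1 in Di-2-ANEPEQ with no low-count filter and in the 2-group fit, and from 1 to 2 in AAV with upper-quartile factors, a mean of at least 50 counts, the DESeq2 Wald test and the 2-group fit. Those in COOH SWCNT against LPS went from 2 to 3 (with C4b) under upper-quartile factors. With no low-count filter the other complement genes called in AAV went from 1 to 0. Leaving out single libraries gave 1 to 2 members called in LPS, 0 to 2 in (GT)6 SWCNT, 0 to 1 in DiBASC2, 0 to 2 in AAV and 1 to 3 in COOH SWCNT against LPS, and 0 to 1 other complement genes in AAV. Baseline levels moved for C1qc (79.2 CPM per kilobase by its longest transcript, against 49.4) and Cfb (0.142 on unshared bases, against 0.0291), and the median ratios with C1qc moved to 8.38 (C1qc to C1qa) and 1.5015 (C1qb to C1qc) by its longest transcript. Where the text gives no reason for a change, the cause was not tested. The replicate numbers were not seen to pair the libraries: same-numbered libraries deviated with correlations of −0.10 to 0.07, and 10 of 21 treatment libraries correlated best with control of their own number. The block changed no other count of members called. Depth limits Cfb, at 3 reads or fewer, and C4b, whose SE was 0.23 to 0.27.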
